A study of Arabidopsis thaliana with 4 samples.

Results

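The genes examined are COP1, its partners SPA1, SPA2, SPA3 and SPA4, the repressor DET1, and the transcription factors HY5 and HYH. They were chosen by name, with earlier results of these data known, as central repressors of light development and their best known targets. They number 8 of the 33602 gene entries in the deposited expression table. All 8 were among the 17684 genes listed in every library whose mean RPKM (reads scaled to gene length and to library size) reached 1, and 22 deposited splicing events lie in them. The RNA came from whole wild-type Arabidopsis thaliana seedlings of accession Col-0, grown for 4 days in darkness, so that they were etiolated (long, pale and unopened). Seedlings were then either left dark or given 4 h of white light. Each condition gave 1 library of total RNA, extracted by the Pine Tree method, and 1 of polysomal RNA, which carries several ribosomes, extracted with phenol and chloroform. The 4 groups, total dark, total light, polysomal dark and polysomal light, therefore hold 1 library each, no genotype was varied, and fraction and extraction method differ together and cannot be told apart.

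In plants, COP1 is the RING-finger subunit of a ubiquitin ligase that marks light-promoting transcription factors for destruction in darkness. SPA proteins bind COP1 and are needed for its activity, DET1 works in a separate complex attached to a cullin ligase, and light acting through phytochromes, cryptochromes and the UV-B receptor turns the COP1/SPA complex down. HY5 is a bZIP transcription factor and COP1 substrate that activates genes of greening and pigment synthesis, and HYH is its close homologue.

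The reads listed per library ranged from 61006149 to 91087442. A gene is said here to have risen or fallen when the log2 ratio of (RPKM + 1) passed 1 in size, that is, at least 2-fold. Folds are given as ratios of RPKM with exact 95% binomial intervals, which cover counting error only. With 1 library per group no difference has a replicate check and no p-value was computed across genes. Among marker genes, 3 of the etiolated state, PORA, PIL1 and PHYA, all fell with light in both fractions. A set of 3 light-induced genes, LHCB1.1 (which has near-identical copies, so its reads are uncertain), ELIP1 and RBCS1A, all rose. Both sets were chosen with earlier results of these data known, so they are no independent check of the labels. Of 7 seed storage genes 5 could be tested. None passed 2-fold with light in total mRNA, although CRA1 and CRC lay just under the line at log2 ratios of −0.99 and −0.96. These 2 fell in polysomal mRNA, where 10.3% of all genes tested did. In the dark 3 of the 5 were higher in polysomal than in total mRNA, against 16.5% of all genes. Of 6 root markers 2 could be tested and neither passed 2-fold in any comparison.

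COP1, with 13 exons on chr2:13977881-13983609 (AT2G32950, TAIR10.1, plus strand), read 12.26 RPKM dark and 27.97 light in total mRNA, and 4.089 dark and 9.386 light in polysomal mRNA. Both light libraries were above their dark counterparts, and both polysomal libraries were below the total ones. Its rise was 2.28-fold (2.17 to 2.40) in total mRNA and 2.30-fold (2.1 to 2.51) in polysomal mRNA, so that the ubiquitin ligase gene itself was more abundant as mRNA after light. Among the genes tested it moved from the 54.5 percentile of total mRNA in the dark to the 76.2 percentile in the light. With a pseudocount of 5 in place of 1 its log2 ratio was 0.93 in total and 0.66 in polysomal mRNA, under the 2-fold line, and with equal nuclear sums it was 0.95 in polysomal mRNA. In whole seedlings more RNA per cell and more cells that hold the RNA cannot be told apart, here and for every gene below.

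SPA1 (AT2G46340, chr2:19022154-19027528, minus strand), a suppressor of phytochrome A signalling, read 16.45 RPKM dark and 88.97 light in total mRNA, and 3.595 and 18.263 in polysomal mRNA. The light libraries were several times higher in each fraction, and in the light SPA1 was the most abundant of the 8 mRNAs per length in total RNA. It rose 5.41-fold (5.24 to 5.59) in total mRNA and 5.08-fold (4.75 to 5.44) in polysomal mRNA. SPA3 (AT3G15354, chr3:5169095-5173105, minus strand) read 6.97 RPKM dark and 39.05 light in total mRNA, and 3.542 and 14.821 in polysomal mRNA. It went up with light like SPA1, 5.60-fold (5.31 to 5.92) in total mRNA and 4.18-fold (3.88 to 4.52) in polysomal mRNA. SPA4 (AT1G53090, chr1:19783185-19786902, plus strand) read 6.29 RPKM dark and 20.68 light in total mRNA, and 1.891 and 6.081 in polysomal mRNA. It was the least abundant SPA mRNA in the dark in both fractions and rose 3.29-fold (3.09 to 3.50) in total and 3.22-fold (2.88 to 3.60) in polysomal mRNA, where a pseudocount of 5 gave a log2 ratio of 0.69, under the line. SPA3 overlaps AT3G15350 and SPA4 overlaps AT1G53100, each on the opposite strand; the use of strand in counting is not given in the sources used here, so reads in the overlaps cannot be assigned.

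SPA2 (AT4G11110, chr4:6771605-6777225, plus strand), which in seedlings is known for acting mainly in darkness, stood apart from the other SPA genes. It read 19.81 RPKM dark and 21.03 light in total mRNA, and 4.511 and 4.628 in polysomal mRNA. Dark and light libraries were close in both fractions, at 1.06-fold (1.03 to 1.1) in total mRNA and 1.03-fold (0.948 to 1.11) in polysomal mRNA. The make-up of the family shifted with this. SPA2 made up 40.0% of the summed SPA RPKM in total dark and 12.4% in total light. SPA1 went from 33.2% to 52.4%, SPA3 from 14.1% to 23.0%, and SPA4 was at 12.7% and 12.2%. In polysomal mRNA SPA2 went from 33.3% to 10.6%, SPA1 from 26.6% to 41.7% and SPA3 from 26.2% to 33.8% of the family sum.

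DET1 (AT4G10180, chr4:6346411-6349314, plus strand), named for the de-etiolated look of its mutant in darkness, read 13.17 RPKM dark and 21.76 light in total mRNA, and 12.406 and 15.337 in polysomal mRNA. The light libraries were higher, but by less than 2-fold, and the fractions were close to each other in the dark. Its ratio of light to dark was 1.65 (1.56 to 1.75) in total mRNA and 1.24 (1.16 to 1.32) in polysomal mRNA.

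HY5 (AT5G11260, chr5:3593335-3595073, minus strand) read 8.63 RPKM dark and 39.45 light in total mRNA, and 44.086 and 165.147 in polysomal mRNA. By deposited RPKM it was the most abundant of the 8 mRNAs per length in both polysomal libraries, an order that in the light depends on its length (described below). HY5 rose 4.57-fold (4.29 to 4.88) with light in total mRNA and 3.75-fold (3.60 to 3.90) in polysomal mRNA. HYH (AT3G17609, chr3:6023844-6024710, plus strand) read 2.11 RPKM dark and 42.55 light in total mRNA, and 8.787 and 127.742 in polysomal mRNA. In the dark it was the lowest of the 8 in total mRNA, on 122 reads, and in the light it came second to SPA1. Its rise was the largest of the 8, 20.2-fold (16.8 to 24.4) in total mRNA and 14.5-fold (13.3 to 15.9) in polysomal mRNA.

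**Figure D1:**
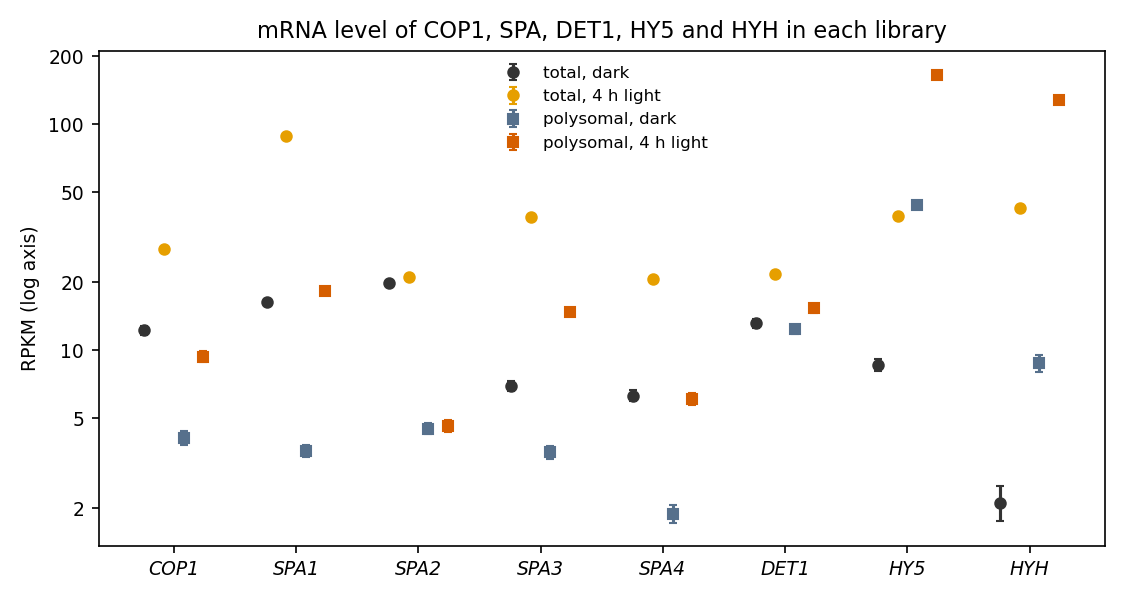
RPKM (log axis) of the 8 genes in the 4 libraries, with bars for exact 95% counting intervals. SPA2 sits near 20 RPKM in both total libraries, while HYH goes from 2.11 to 42.55 RPKM in total mRNA and to 127.742 RPKM in polysomal light.

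In all, 6 of the 8 genes rose with light in total mRNA, where 10.7% of all genes tested did, and none fell, where 5.73% did. In polysomal mRNA 6 rose, against 9.35% of all genes, and none fell, against 10.3%. As the 8 genes were chosen with earlier results of these data known, these shares give the background and are not a test. SPA2 and DET1 were the 2 that did not pass the line in either fraction. The median log2 ratio of the 8 was 1.82 in total mRNA and 1.55 in polysomal mRNA, and over all genes tested it was −0.02 and −0.17.

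**Figure D2:**
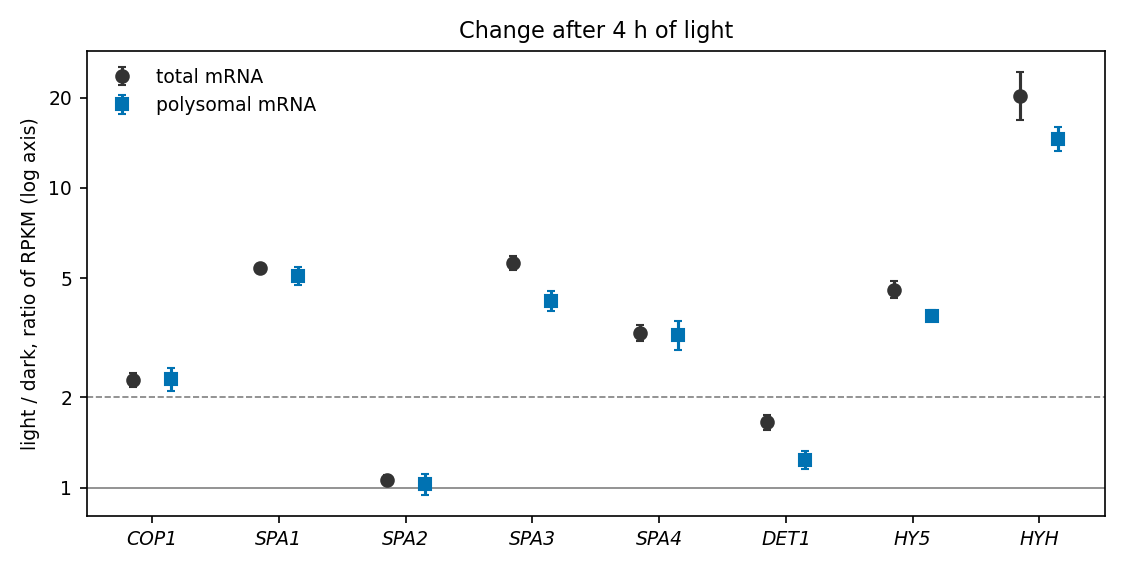
Ratio of RPKM in light over dark (log axis) for total and polysomal mRNA of each gene, with 95% counting intervals; the dashed line marks 2-fold. HYH lies highest at 20.2 and 14.5, and only SPA2 and DET1 stay under the dashed line in both fractions.

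By order of level in total dark, SPA2 was followed by SPA1, DET1, COP1, HY5, SPA3, SPA4 and HYH. The counting intervals of DET1 and COP1 overlapped, as did those of SPA3 and SPA4. In total light the order was SPA1, HYH, HY5, SPA3, COP1, DET1, SPA2 and SPA4, where HY5 and SPA3 overlapped, as did DET1 with SPA2 and SPA2 with SPA4. In polysomal dark HY5 and DET1 led, then HYH, followed by SPA2, COP1, SPA1 and SPA3, of which each overlapped with its neighbour, and SPA4 was lowest and apart. In polysomal light HY5, HYH and SPA1 led, DET1 and SPA3 overlapped, and COP1, SPA4 and SPA2 came last.

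The level of HY5 depends on a length that differs between the fractions. The RPKM of total mRNA follow from reads and a deposited length of 1930 bases, although the whole HY5 locus in TAIR10.1 spans 1739 bases and its spliced first model has 1028. The polysomal RPKM follow from a length of about 0.928 kb, 48.0% of the other. The median over all genes was 98.2%, and 243 genes (1.37%) were at or below the value of HY5. For HYH the polysomal length was 86.3% of the total one, and for the other 6 genes it lay between 97.4% and 103%. With the shorter length used in both fractions, HY5 came to 18.0 RPKM in total dark and 82.1 RPKM in total light, above the 2.44 and 49.3 RPKM of HYH. The share of HYH in the sum of both genes was 19.6% in total dark and 51.9% in total light with the deposited RPKM, and 12% and 37.5% with the shorter lengths. It was 16.6% and 43.6% in the polysomal libraries. With the lengths behind total RPKM used in both fractions, HY5 came to 21.2 RPKM in polysomal dark and 79.3 RPKM in polysomal light, where HYH had 7.58 and 110.3 RPKM. HYH thus gained on HY5 with light under either length, and which of the pair was the more abundant in the light turned with the length in both fractions.

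Polysomal mRNA was next set against total mRNA. HY5 was 5.11-fold (4.77 to 5.48) higher in polysomal than in total mRNA before light and 4.19-fold (4.06 to 4.32) after it by deposited RPKM. Counted as reads over library size, with no length, the same ratios were 2.39 (2.23 to 2.56) and 1.96 (1.90 to 2.02). With the total length behind both fractions its log2 ratio was 1.20 before light and 0.99 after it, the latter just under the 2-fold line. HYH was 4.16-fold (3.41 to 5.12) and 3.00-fold (2.88 to 3.13) higher by RPKM, and 3.50-fold and 2.52-fold by reads over library size. Its log2 ratio was under the line in the dark with a pseudocount of 5, at 0.96, and in the light with equal nuclear sums, at 0.97. COP1 and the SPA genes had lower values in polysomal than in total mRNA. COP1 was 3.00-fold (2.75 to 3.27) lower in darkness and 2.98-fold (2.81 to 3.16) lower after light. SPA1 was lower by 4.58-fold in darkness and 4.87-fold after light, SPA2 by 4.39-fold and 4.54-fold, and SPA4 by 3.33-fold and 3.40-fold. With a pseudocount of 5 the dark log2 ratios of COP1 and SPA4 were −0.93 and −0.71, short of the line. SPA3 was 1.97-fold (1.81 to 2.14) lower in the dark, short of the line unless nuclear sums were set equal (−1.31 on the log2 scale), and 2.63-fold (2.53 to 2.75) lower in the light. DET1 was near equal in the dark, 1.06-fold (0.992 to 1.14) lower in polysomal mRNA, and after light 1.42-fold (1.34 to 1.5) lower, which passed the line only with equal nuclear sums, at −1.05 on the log2 scale.

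In the dark 2 of the 8 genes were thus at least 2-fold higher in polysomal mRNA, as were 16.5% of all genes, and 4 were at least 2-fold lower, as were 16.2%. In the light 2 were higher, against 12.8%, and 5 were lower, against 21.4%. This ratio moved with gene length over the whole table, short genes being higher in polysomal mRNA, and the ligase genes are long while HY5 and HYH are short. Set against genes within 10% of their length, SPA1 had a log2 ratio of −1.93 in the dark where the median of 651 such genes was −1.04 and their 10th to 90th percentiles ran from −1.81 to −0.21. SPA2 had −1.92 where the median of 497 genes was −1.04 and the percentiles ran from −1.83 to −0.32. COP1 had −1.38 where the median was −0.60 and the percentiles ran from −1.41 to 0.25, and SPA4 had −1.33 where the median was −0.83. SPA3, at −0.81, was close to its median of −0.91, and DET1, at −0.08, lay above its median of −0.33. On the shorter length HY5 had 1.25 where the median of 1580 genes was 0.67 and the percentiles ran from −0.49 to 1.80. HYH likewise had 1.51 where the median of 1130 genes was 1.08. Thus SPA1 and SPA2 in the dark lay below the 10th percentile of genes of their length, and HY5 and HYH lay inside the range from the 10th to the 90th. In the light SPA1, at −2.22, was again below its 10th percentile of −1.95, whereas SPA2, at −1.97, lay just above its own of −1.99, and COP1, at −1.48, just above −1.49. With the trend of the ratio over deposited length removed, 1 of the 8 genes, HY5, was past 2-fold in each condition, and that value rests on the longer length. HYH was then at 0.64 and 0.69, and COP1 and the SPA genes lay between −0.92 and 0.10.

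**Figure D3:**
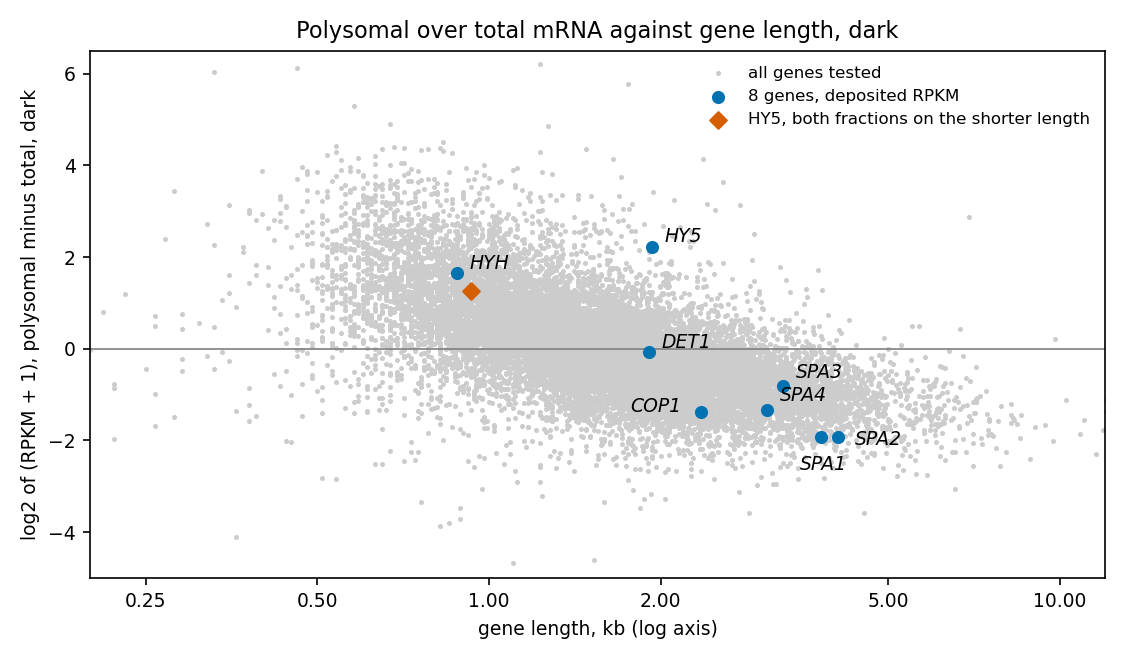
Log2 of (RPKM + 1) in polysomal minus total mRNA in the dark, against deposited gene length (log axis), for all genes tested (grey) and the 8 genes (blue). HY5 stands at 2.23 by deposited RPKM. With both fractions on the shorter length, at which it is then placed (orange), it stands at 1.25. Genes of that length, with ratios recomputed in the same way and not drawn, lie mostly between −0.49 and 1.80.

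The polysomal over total ratio itself was compared between light and dark. No gene of the 8 changed by 2-fold, where in the light 0.741% of all genes were up and 3.27% down. The median log2 change was −0.23 for the 8 and −0.18 for all genes. The ratio in the light was 0.747 (0.680 to 0.820) of that in the dark for SPA3, 0.748 (0.685 to 0.817) for DET1, 0.819 (0.760 to 0.884) for HY5 and 0.721 (0.589 to 0.882) for HYH, by intervals from the reads on the log scale. The direction for HY5 and HYH was not stable: their log2 changes were −0.19 and −0.09 with a pseudocount of 1, 0.09 and 0.53 with a pseudocount of 5, 0.02 and 0.12 after centring on the median gene, and 0.01 and 0.02 with the length trend removed. For COP1, SPA1, SPA2 and SPA4 the interval included 1. The ratio of SPA3 and DET1 stayed lower in the light under each of these settings, at −0.32 and −0.19 when centred.

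Promoter windows of 250 bases before the annotated start (TAIR10.1, RefSeq gene models) were read for the 8 genes and searched for ACGT, the core that bZIP factors such as HY5 bind, and for the G-box CACGTG, which contains it. Both motifs are their own reverse complement, so each search covers both strands. No window held CACGTG, which 7.60% of 17550 windows of all tested genes with a full window held, and 6 of the 8 held ACGT, against 44.1%. The core lay 44 bases before the start in COP1, 107 in SPA1, 240 and 108 in SPA2, 62 and 29 in SPA3, 8 in HY5 and 55 in HYH, and SPA4 and DET1 had none. A match is a description of these letters and not of binding. The windows of COP1 (chr2:13977631-13977880, plus strand), HY5 (chr5:3595074-3595273, minus strand) and HYH (chr3:6023594-6023843, plus strand) are shown because they belong to the ligase gene and the transcription factors that moved with light, with ACGT in capitals; that of HY5 is cut to 200 bases where AT5G11270 is reached.
COP1 promoter: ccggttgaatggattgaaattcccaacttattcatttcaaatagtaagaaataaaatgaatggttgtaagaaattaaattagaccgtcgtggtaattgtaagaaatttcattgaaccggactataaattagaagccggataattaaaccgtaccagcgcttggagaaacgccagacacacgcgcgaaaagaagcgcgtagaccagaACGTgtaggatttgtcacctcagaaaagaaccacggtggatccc
HY5 promoter: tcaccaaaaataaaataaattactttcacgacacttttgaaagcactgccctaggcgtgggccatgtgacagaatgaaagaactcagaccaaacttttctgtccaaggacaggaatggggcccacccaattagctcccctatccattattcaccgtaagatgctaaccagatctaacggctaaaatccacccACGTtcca
HYH promoter: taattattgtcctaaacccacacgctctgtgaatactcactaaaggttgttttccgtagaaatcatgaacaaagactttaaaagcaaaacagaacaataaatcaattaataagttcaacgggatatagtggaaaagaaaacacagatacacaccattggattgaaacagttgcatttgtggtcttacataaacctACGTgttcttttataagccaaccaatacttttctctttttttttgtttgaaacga

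Splicing was described from the 22 deposited events in the 8 genes, 11 retained introns and 11 alternative donor or acceptor sites. The authors' deposited table sets light-regulated events by a p-value under 0.01 and a ratio of percents of at least 1.5. By that rule 4 of the 22 events were called, 1 each in SPA1, SPA4, HY5 and HYH, where 17.0% of all 22449 events were. The event of SPA4 was higher in the light, as were 7.46% of all events, and the other 3 were lower, as were 9.50%. COP1, SPA2, SPA3 and DET1 had none. Fisher's exact test on the reads of the 2 total libraries, adjusted over all events with recovered totals, called 5.06% of all events and 2 of the 22, those of SPA1 and HY5. Such a test compares those libraries, not the conditions. In HYH, SPA1, SPA4 and HY5 an alternative site of the same intron shows the spliced reads. The totals of those retained introns count each such read 2 times. Intervals of retained introns are thus too narrow and their p from Fisher's exact test too small. Polysomal percents were deposited without reads, and the file headers describe their denominator in the same words as for total mRNA, as the steady-state transcript, without naming the library it was read in.

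The event with the largest ratio among the 22 was a downstream donor site in the first intron of SPA1, within the 5′ UTR. In total dark 12 of 47 junction reads used it, 25.5% (exact 95% interval 13.9 to 40.3), and in total light 2 of 303 did, 0.660% (0.0800 to 2.36). The dark and light intervals did not overlap. The authors' deposited table gives p = 2.89e-20, and Fisher's exact test gave an adjusted p of 8.88e-08. Resting on 12 and 2 event reads, it was the call lost when at least 20 event reads in 1 library were required, which left 3 of 4. Use of this donor lengthens the 5′ UTR from 425 to 620 bases, adding 195 bases that hold 5 ATG triplets to the 9 in the shorter form. The coding sequence is the same in both. The donors lie at chr2:19027150-19027173 and chr2:19026955-19026978 (minus strand), and are printed because this event had the largest ratio; capitals mark the first bases of each intron.
SPA1 donor of exon 1: gggatcttcgggGTaagcgatttg
SPA1 donor 195 bases downstream: tgaatttactagGTagggcttctt

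The mRNA of SPA1 meanwhile rose 5.41-fold. The other events of SPA1 lie in the same intron. Its retention was 13.6% (7.0 to 23.0) in the dark and 9.20% (7.11 to 11.7) in the light. An acceptor 180 bases upstream took 2.78% and 7.67% of reads, with overlapping intervals. No polysomal percent was listed for any SPA1 event.

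HYH carried 3 events around its first intron, which lies within the coding sequence. Retained reads were 12 of a total of 18 in total dark, 66.7% (41.0 to 86.7), and 226 of 700 in total light, 32.3% (28.8 to 35.9). These totals count each of the 3 dark and 237 light reads of the first acceptor 2 times. They leave out the 2 acceptors downstream, described below. The intervals are therefore too narrow, and that they do not overlap does not separate dark from light. The dark value rests on 12 retained and 3 spliced reads. The authors' deposited table gives p = 1.40e-07, and Fisher's exact test gave an adjusted p of 0.0402, above the 0.01 used. In polysomal mRNA the retained form was at 7.69% in the dark and 9.63% in the light, below both total libraries. The intron has 73 bases (chr3:6024035-6024107, plus strand), and read on from the 64 coding bases before it, an in-frame TGA starts at its base 9. It is printed with that triplet in capitals to show how early the stop falls.
HYH intron 1: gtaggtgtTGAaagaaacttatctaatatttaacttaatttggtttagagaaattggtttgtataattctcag

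The spliced form of HYH used 3 acceptors. Of 451 junction reads in total light, 237 (52.5%, 47.8 to 57.2) joined the first acceptor, 191 (42.4%, 37.7 to 47.1) one 45 bases downstream, and 23 (5.10%, 3.26 to 7.55) one 42 bases downstream. In total dark there were 8 junction reads, 3, 4 and 1 in that order, too few to set against light. From the deposited percents, the shares in polysomal mRNA were 41.7%, 52.8% and 5.56% before light, and 44.1%, 51.3% and 4.64% after it, with no reads given. Both downstream acceptors keep the reading frame, shortening the coding sequence of 450 bases by 15 or 14 codons. The acceptors lie at chr3:6024096-6024119, chr3:6024138-6024161 and chr3:6024141-6024164, and are printed with the last bases of the intron in capitals, since the downstream pair are 3 bases apart and the closer one was used far less.
HYH acceptor of exon 2: tataattctcAGaggaaagtgatg
HYH acceptor 42 bases downstream: ctgacatggaAGcagctggatcaa
HYH acceptor 45 bases downstream: acatggaagcAGctggatcaacat

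In HY5 the third intron, of 371 bases, was retained in 27 of a total of 193 in total dark, 14.0% (9.43 to 19.7). In total light it was retained in 135 of 2349, 5.75% (4.84 to 6.77). These intervals did not overlap, but they are too narrow where spliced reads are counted more than once. The authors' deposited table gives p = 1.28e-06, and Fisher's exact test gave an adjusted p of 0.00214. The change of −8.24 percentage points is under 10, so this call was lost, leaving 3 of 4, where a difference of that size was required. In polysomal mRNA the retained form was at 0.986% in the dark and 0.597% in the light, again below both total libraries. Read on from the exon before it, the first in-frame stop starts at base 103 of the intron. Retention of the second intron of HY5 was 5.07% in the dark and 6.17% in the light. In both HY5 and HYH, then, the retained form that was lower in the light had a lower percent in polysomal than in total mRNA in either condition. The other retained introns with polysomal percents did not share this. Intron 1 of DET1 was at 26.3% in both polysomal libraries against 16.7% in total dark and 19.6% in total light, and intron 4 of SPA3 was close between fractions. The share of all retained introns with this pattern is not given here.

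SPA4 went the other way. Its first intron, in the 5′ UTR, was retained in 9 of a total of 37 in total dark, 24.3% (11.8 to 41.2), and in 48 of 96 in total light, 50% (39.6 to 60.4). These intervals overlapped. The authors' deposited table gives p = 0.000984, and Fisher's exact test gave an adjusted p of 0.0788. The 3 coding events of SPA4, retention of introns 2 and 7 and an acceptor 11 bases upstream, were at 6.17%, 6.56% and 11.6% of reads before light and at 3.91%, 2.84% and 7.53% after it.

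**Figure D4:**
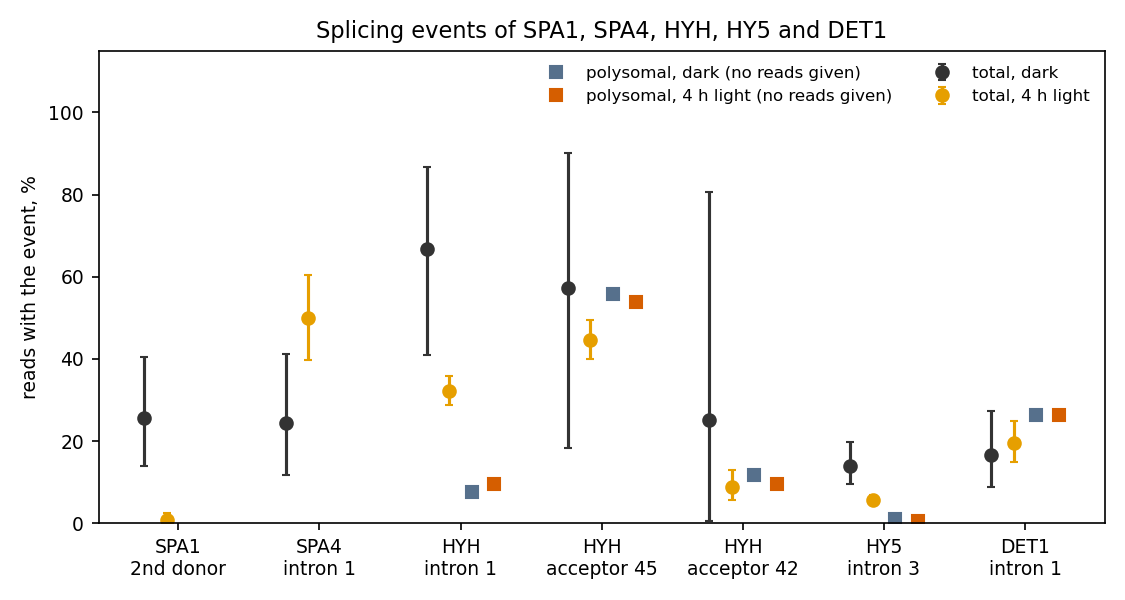
Percent of reads with each event in the 4 libraries, with exact 95% intervals for total mRNA, which are too narrow for retained introns. Polysomal percents were deposited without reads, and those of SPA1 and SPA4 are not listed. Each downstream acceptor of HYH is set against the first alone. The SPA1 donor goes from 25.5% to 0.660% with light. Retained intron 1 of HYH stands at 66.7% and 32.3% in total mRNA, where it is set against the first acceptor alone. In polysomal mRNA it stands at 7.69% and 9.63%.

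The remaining events were not called. In COP1 an acceptor 4 bases upstream of exon 3 took 1 of 77 reads in total dark, 1.3% (0.0329 to 7.02), and 19 of 220 in total light, 8.64% (5.28 to 13.2), with overlapping intervals. The authors' deposited table gives p = 0.0245, and Fisher's exact test gave an adjusted p of 0.159. The 4 added bases shift the reading frame. Both acceptors (chr2:13978861-13978884 and chr2:13978857-13978880, plus strand) are shown with the intron's last bases in capitals.
COP1 acceptor of exon 3: atacttagacAGggttgtgatgtg
COP1 acceptor 4 bases upstream: gttcatacttAGacagggttgtga

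Another acceptor of COP1, 409 bases upstream, took 6.67% and 13% of reads. In SPA3 the first intron was retained in 11.4% of reads in total dark and 7.13% in total light. In the same gene the fourth intron was retained in nearly all reads, 95.7% in total dark and 99.4% in total light, with 96.4% and 98.9% in polysomal mRNA, and an annotated model holds the retained form. The ratio of these percents is far below 1.5, yet the authors' deposited table gives p = 9.00e-54, while Fisher's exact test gave an unadjusted p of 0.0689. The spliced form made up only 2 of the total in each library, a number that can count the same read more than once. The first intron of DET1 was retained in 16.7% of reads in total dark, 19.6% in total light and 26.3% in both polysomal libraries. A donor of DET1 6 bases upstream took 4.92% and 6.96% in total and 9.30% and 10.4% in polysomal mRNA. At the junction of its exons 5 and 6, an acceptor 27 bases upstream took 4.94% and 5.76% of reads, and a junction whose ends are not GT and AG 4.94% and 6.43%. Intron 3 of SPA2, which begins with GC in place of GT, was retained in 6.23% of dark and 8.86% of light reads. The deposited polysomal event table held 7 of the 22 events; 1 of them changed by at least 1.5-fold with light, where 48.7% of 7529 events did, and it was a HY5 junction whose ends are not GT and AG, at 7.21% and 4.59% in total and 3.33% and 6.24% in polysomal mRNA. The polysomal percents of retained intron 3 of HY5 come from the authors' list of light-regulated events alone and had a log2 ratio of −0.72.

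The other genes of the pathway were read from lists. The COP9 signalosome, which removes the activating NEDD8 tag from cullin ligases, had 0 of 10 subunit genes past 2-fold in any comparison. As only 10.7% of all genes rose and 5.73% fell with light in total mRNA, such counts in short lists are close to the background there. Between fractions the background was larger: 16.5% of all genes were higher in polysomal mRNA and 16.2% lower in the dark. In the light 12.8% were higher and 21.4% lower. With light in total mRNA the subunit genes ran from −0.05 for CSN2 to 0.76 for CSN7 on the log2 scale. Of 6 genes of the DET1 complex and the CUL4 ligase 0 rose or fell with light, again near the background. In total mRNA they ran from −0.52 for RBX1A to −0.05 for COP10, the E2 variant that binds DET1, with CUL4 at −0.07. Of 8 photoreceptors that act on COP1, PHYA alone passed 2-fold with light, with a log2 ratio of −1.86 in total and −2.37 in polysomal mRNA, and none rose. Polysomal mRNA was at least 2-fold below total mRNA for 6 of the 8 in darkness, against 16.2% of all genes, and for 7 after light, against 21.4%. These genes are long too, from 2.13 to 4.47 kb, where genes within 10% of their length had medians from −1.08 to −0.48 in the dark. Below the 10th percentile of such genes lay 1 of the 8 in the dark and 2 in the light.

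Substrates and partners of COP1 moved in both directions. Of 14 such genes 11 could be tested, LAF1, CO and PAP2 being outside the filter. With light 6 rose and 2 fell in each fraction, with a median log2 ratio of 1.61 in total mRNA. Of all genes tested 10.7% rose and 5.73% fell in total mRNA, and 9.35% rose and 10.3% fell in polysomal mRNA. This list was chosen with earlier results of these data known. BBX25, a B-box protein, had the highest ratio, 5.18 in total and 4.36 in polysomal mRNA. RUP2, a repressor of UV-B signalling, had 4.17 and 3.50. The 2 that fell were BBX20, at −1.82 and −1.62, and BBX21, at −1.32 and −1.90. HFR1, a bHLH substrate of COP1, had −0.15 and −0.46.

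Of 16 genes known as HY5 targets 15 could be tested, and 11 rose and 2 fell in each fraction. Over all genes tested the shares were 10.7% and 5.73% in total mRNA, and 9.35% and 10.3% in polysomal mRNA. This list too was chosen with earlier results of these data known, and it shares ELIP1 and RBCS1A with the light-induced marker genes. ELIP1, a light-stress protein of the thylakoid, had the highest log2 ratio in total mRNA, 5.84, with SIG5, a plastid sigma factor, next at 5.43. CHS, the first enzyme of flavonoid synthesis, had 4.80. The 2 that fell were FHY1 and FHL, the carriers of phytochrome A into the nucleus, at −1.46 and −2.14. The median of the targets was 2.50 in total and 2.89 in polysomal mRNA, and that of the 8 central genes 1.82 and 1.55.

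**Figure D5:**
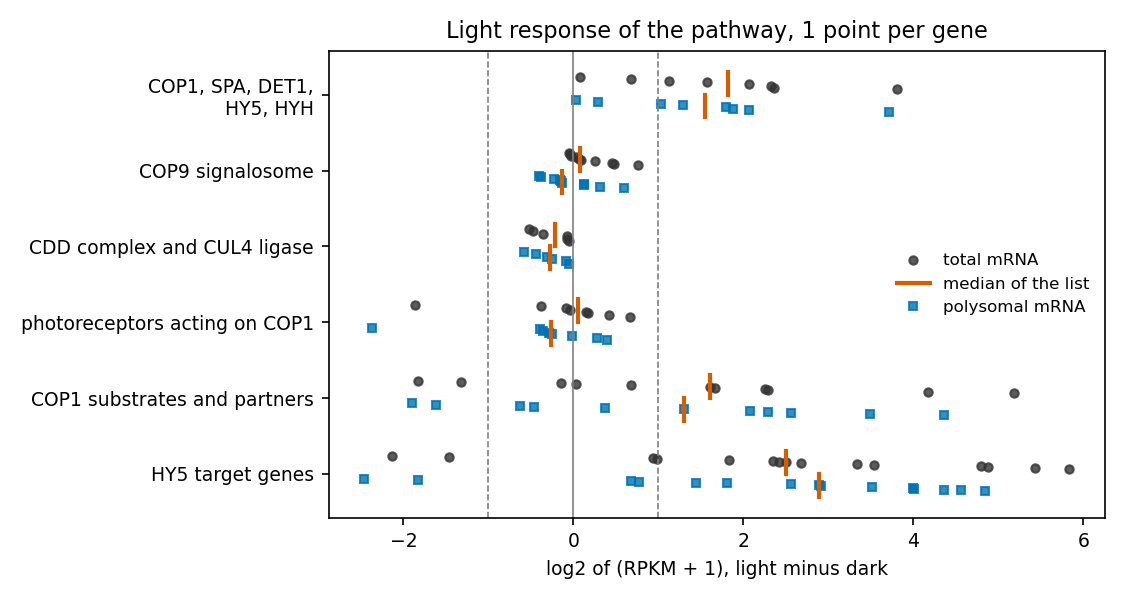
Log2 of (RPKM + 1), light minus dark, of the genes tested in each list, 1 point per gene, with list medians in orange and dashed lines at 2-fold. Signalosome, DET1 complex and most photoreceptor genes lie between the lines, and HY5 targets reach 5.84.

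Finally, the genes whose pattern over the 4 libraries was most like each of the 8 were found among 4732 named genes of at least 10 RPKM on average, 4733 for SPA4, by the distance between log2(RPKM + 1) profiles centred on their means. For COP1 the nearest was RD26 at 0.06, with 13.98 RPKM dark and 33.54 light in total mRNA and 4.879 and 11.243 in polysomal mRNA. SPA2 lay closest to PUR4 at 0.04, SPA3 to WTF1 at 0.13, SPA4 to Hsp89.1 at 0.21 and DET1 to GAMMA CA1 at 0.07. SPA1 had no near match, its closest being HSP90.1 at 0.47. HY5 lay closest to PSAH-1, a photosystem I subunit, at 0.18. LHCA2, an antenna protein, and AGL87 came next, both at 0.23. For HYH they were FBA5 at 0.33, LHCB2.2, an antenna gene with a near-identical copy, at 0.34 and CHIL at 0.39. With 4 libraries these distances describe the profiles alone, and those of HY5 include its difference in length between the fractions.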

How the data were processed

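Expression values came from a deposited table with gene length, reads and RPKM for each of the 4 libraries. Total mRNA read counts are whole numbers and polysomal reads are estimated counts (expected counts), both as deposited. RPKM and the log2 ratios were made by the authors, per the file headers. Splicing tables hold, per the file headers, event reads, the percent of reads with the event, log2 ratios of percents by the authors and a p-value from the authors' chi-square test, not adjusted. The submitters' processing notes name TAIR10; for aligner, counter and strand setting, the sources used here give none. Columns of per-sample values were all mapped to a sample, so 0 were left out; gene length belongs to no sample, and the log2 ratios and p-values to comparisons.

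Ratios were log2 of (RPKM + 1), a pseudocount of 1, over the 17684 genes that average 1 RPKM or more; a log2 ratio understates the change of low genes. Called means at least 2-fold. Fold intervals come from the reads (exact binomial, 95%, estimated reads rounded); the change of the polysomal ratio has a log-scale interval. Event totals were recovered from reads and percent, and were whole within 0.01 for 97.9% of the events used. Event intervals are Clopper-Pearson. For retained introns the totals count spliced reads more than once, which the intervals and the exact test do not allow for. Intervals cover counting error only, since PCR copies are not told apart. Fisher's exact test with Benjamini-Hochberg adjustment was added after seeing the data, as were the common length and the length comparison of the photoreceptors. Coordinates and sequences are from RefSeq TAIR10.1. Its introns at these genes began with GT or GC and ended with AG where the deposited event names place them. The exceptions were the HY5 and DET1 junctions whose ends are not GT and AG. The length behind an RPKM was worked out from its reads, the library total and genes over 3 kb. Python 3.11.15, pandas 2.3.3, numpy 2.4.6, scipy 1.17.1 and matplotlib 3.10.9 were used, with the ratios, intervals and exact test tested on simulated data. Named genes were the 8 genes and all their events, each given in the text. Of each list at most the 2 highest and 2 lowest and those past 2-fold were named, and besides these CUL4 and HFR1. Of the nearest profiles up to 3 were named for each gene. The COP9 signalosome, DET1 complex, substrate, photoreceptor, HY5 target and marker lists, like the 8 genes, were chosen with earlier results of these data known.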

Additional observations from a re-analysis of the deposited data

Results flagged for a closer look

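Retention of the first intron of HYH moved in opposite directions with light in the 2 fractions. The log2 ratio of percents in light over dark was −1.05 in total mRNA and 0.32 in polysomal mRNA, a difference of 1.37. The junction of HY5 between exons 2 and 3 whose ends are not GT and AG likewise had −0.65 in total and 0.90 in polysomal mRNA, a difference of 1.56. With 1 library per group and no polysomal reads given, neither difference was tested.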

How the results depend on the processing

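No paired analysis was possible because each group holds 1 library, and for the same reason no library could be left out. Over 280 values of the 8 genes under other settings, none that was called changed sign (some uncalled ones did, such as the changes of ratio of HY5 and HYH), and 123 moved by more than their counting interval. With a pseudocount of 5, the genes past 2-fold numbered 1767 against 2902 with light in total mRNA, 2048 against 3471 in polysomal mRNA, 3399 against 5786 between fractions in the dark, 3330 against 6038 in the light, and 362 against 709 for the change of the ratio, which a pseudocount of 0.1 took to 1129. That pseudocount of 5 left 3 of 6 of the 8 genes past 2-fold between fractions in the dark. Removing the length trend left 3285 genes past 2-fold in darkness and 2568 after light, and 1 of 6 and 1 of 7 of the 8 genes. Called events of total mRNA fell from 3808 to 1947 with at least 20 event reads and to 1106 by Fisher's exact test, which kept 2 of 4 in these genes. The 1 polysomal event called in them was lost, leaving 0, at a ratio of 2 and at 10 percentage points.

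Centring subtracted a median of −0.22 for light in polysomal mRNA, −0.28 between fractions in the light and −0.21 for the change of the ratio, so these ratios rose. Equal nuclear RPKM sums lowered the median gene's log2 ratio between fractions, by 0.50 before and 0.49 after light. The share of calls that were higher was 47.7% as reported and 64.5% centred for light in polysomal mRNA. Between fractions it was 50.4% in the dark and 20.7% with equal sums. In the light it was 37.4%, 58.0% centred and 13.3% with equal sums. For the change of the ratio it was 18.5% and 44.5% centred. Depth limits most the dark events of HYH, on 12 reads of the retained intron and 8 junction reads.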
